A study of Mus musculus with 18 samples.

Results

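The NADPH oxidase genes described here are Cybb, Cyba, Ncf1, Ncf4, Rac1, Rac2 and Nox4. They were taken by name, and all 7 were found among the 30583 genes of the count tables. The series followed mouse heart muscle after the left anterior descending artery of the heart was ligated, an operation that produces a myocardial infarction. It held 18 male C57BL/6JR mice aged 12 weeks, all anaesthetised with sodium pentobarbital. The 3 mice of the sham group underwent the operation with the suture passed around the artery but left untied, and the other 5 groups, of 3 mice each, had the artery tied. They were sampled early (10 min or 1 h later), at 6 h, or late (24 h or 72 h). The sham mice are recorded at 0 h, and no later sham group was included. Differences from sham at later times therefore cannot be told apart from effects of time since the operation. The labels name no genotype other than the strain, and each library is given as a separate mouse. RNA came from the infarcted region of the left ventricle and was sequenced after selection of polyadenylated RNA.

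The sample labels name cardiomyocytes as the cell type, but the libraries held markers of many heart cell types. Levels of a gene across libraries are given as CPM, its count relative to the library's total after TMM scaling, which adjusts each library for its composition. Summed over 8 genes, cardiomyocyte markers ranged from 61382 to 65656 CPM in sham hearts, and 8 endothelial markers summed to between 1360 and 1488. In the same sham libraries, 9 fibroblast markers summed to between 843 and 951 and 12 monocyte and macrophage markers to between 238 and 271. Libraries held between 18199172 and 25062351 counts each. Levels of different genes are compared only as the deposited FPKM, which divides by the summed length of a gene's annotated exons. That length can exceed the length of the transcripts made in these hearts, which was not measured, so comparisons between genes are approximate. In bulk tissue, fewer cells of a type and less RNA per cell cannot be told apart.

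NADPH oxidases carry electrons from NADPH across a membrane to oxygen and so form superoxide or hydrogen peroxide. In phagocytes the catalytic chain gp91phox, encoded by Cybb, sits in the membrane with its partner p22phox, encoded by Cyba. This pair is idle until cytosolic subunits, among them the organiser p47phox (Ncf1) and the phosphoinositide-binding p40phox (Ncf4), and a GTP-bound Rac protein join it. Rac2 is the Rac protein of blood cells, while Rac1 is made in nearly all cells. Nox4 also pairs with p22phox, needs none of the cytosolic subunits, releases mainly hydrogen peroxide, and has been described in cardiomyocytes, endothelium and fibroblasts.

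In GRCm38 coordinates with the GENCODE M21 annotation, Cybb (ENSMUSG00000015340) lies at chrX:9435252-9487771 and Cyba (ENSMUSG00000006519) at chr8:122424776-122432930, both on the minus strand. Ncf1 (ENSMUSG00000015950) lies at chr5:134220053-134229625 on the minus strand and Ncf4 (ENSMUSG00000071715) at chr15:78244801-78262580 on the plus strand. Rac1 (ENSMUSG00000001847) lies at chr5:143503634-143528036 and Rac2 (ENSMUSG00000033220) at chr15:78559167-78572783, both on the minus strand. Nox4 (ENSMUSG00000030562) lies at chr7:87246096-87398710 on the plus strand. All 7 are annotated as protein-coding.

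The promoters of Cybb and Ncf1 are shown because these genes code for partners in one enzyme and their levels parted at 6 h. Promoter windows from RefSeq (GRCm38.p6), running from 250 bases before to 50 bases after the annotated start, matched 4 of the 7 genes: Cybb, Cyba, Ncf1 and Nox4. The 150 bases just before each start are printed 5′ to 3′ on the gene's strand, and capitals mark a match to an AP-1 site, searched as TGANTCA. The Cybb stretch is chrX:9469325-9469474 on the minus strand, and the Ncf1 stretch is chr5:134229626-134229775 on the minus strand. The GENCODE gene model of Cybb extends past this RefSeq start, and no GENCODE exon overlaps the printed stretch.
Cybb: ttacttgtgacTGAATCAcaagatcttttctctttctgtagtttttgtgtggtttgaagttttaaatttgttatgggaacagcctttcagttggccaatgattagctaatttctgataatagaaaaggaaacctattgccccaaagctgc
Ncf1: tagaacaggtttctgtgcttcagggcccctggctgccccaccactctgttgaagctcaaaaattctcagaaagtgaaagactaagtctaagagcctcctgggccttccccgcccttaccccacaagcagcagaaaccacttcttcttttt

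The AP-1 match in the Cybb window begins 139 bases before the start, and such a match occurs in 7.8% of 32851 windows of the same length. The purine box bound by PU.1, searched as GAGGAA on both strands, occurs in 28.3% of those windows. The Cybb window holds 1 match to these exact letters, on the opposite strand, starting 10 bases after the gene's start. Purine-rich stretches with other letters were not searched for. The windows of Cyba, Ncf1 and Nox4 held no match to either motif, which says only that these letters are not in those windows. The 2 motifs do not overlap in the Cybb window.

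The oxidase genes stayed near sham levels for the first hour, parted from one another at 6 h, and were all higher than sham at 72 h. Each library group was compared with sham by edgeR's quasi-likelihood test over 16311 genes that passed a filter on low counts, and all 7 oxidase genes passed it. A gene was called at a Benjamini-Hochberg adjusted p below 0.05 over all genes tested. At 10 min, 0 of the 7 were called by edgeR, against 0.0736% of all genes tested, with adjusted p from 0.907 to 0.987. At 1 h, 0 of the 7 were called by edgeR, against 0.294% of all genes, each with an adjusted p of 0.999. At both times 0 had an unadjusted p below 0.05, and DESeq2 and limma also called 0.

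At these early times each gene's libraries ran close to or across the sham range. Cybb ranged from 8.53 to 13.5 CPM at 10 min and from 8.59 to 11.3 CPM at 1 h, and Cyba from 38.3 to 39.2 and from 37.3 to 40.6 CPM. Ncf1 ranged from 3.82 to 5.54 CPM at 10 min and from 4.08 to 5.12 CPM at 1 h, and Ncf4 from 1.01 to 1.76 and from 0.888 to 1.55 CPM. Rac1 ranged from 131 to 141 CPM and from 135 to 142 CPM, and Rac2 from 2.37 to 4.02 and from 3.04 to 4.61 CPM. Nox4 ranged from 0.311 to 1.01 CPM at 10 min and from 0.386 to 0.700 CPM at 1 h. The Ncf1 libraries of both times lay just above its sham range of 3.29 to 3.79 CPM, as 11% of all genes did at 10 min and 8.25% at 1 h, and for the other genes at least one library lay within or below the sham range.

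At 6 h, 3 of the 7 (Ncf1, Rac1 and Rac2) were called and all 3 were higher, while 28.4% of all genes were called and 16.3% were called higher. At 24 h, 6 of the 7 were called, all higher, against 43.8% of all genes called and 23.7% called higher. At 72 h all 7 were called higher, against 66.4% of all genes called and 34.2% called higher. The median log2 fold change of the 7 genes was 0.57 at 6 h, 1.15 at 24 h and 3.47 at 72 h, while the median over all genes tested was -0.01, 0.01 and 0.03. These comparisons share the same 3 sham libraries. The F test over all groups called all 7, as it did 78.4% of all genes.

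**Figure D1:**
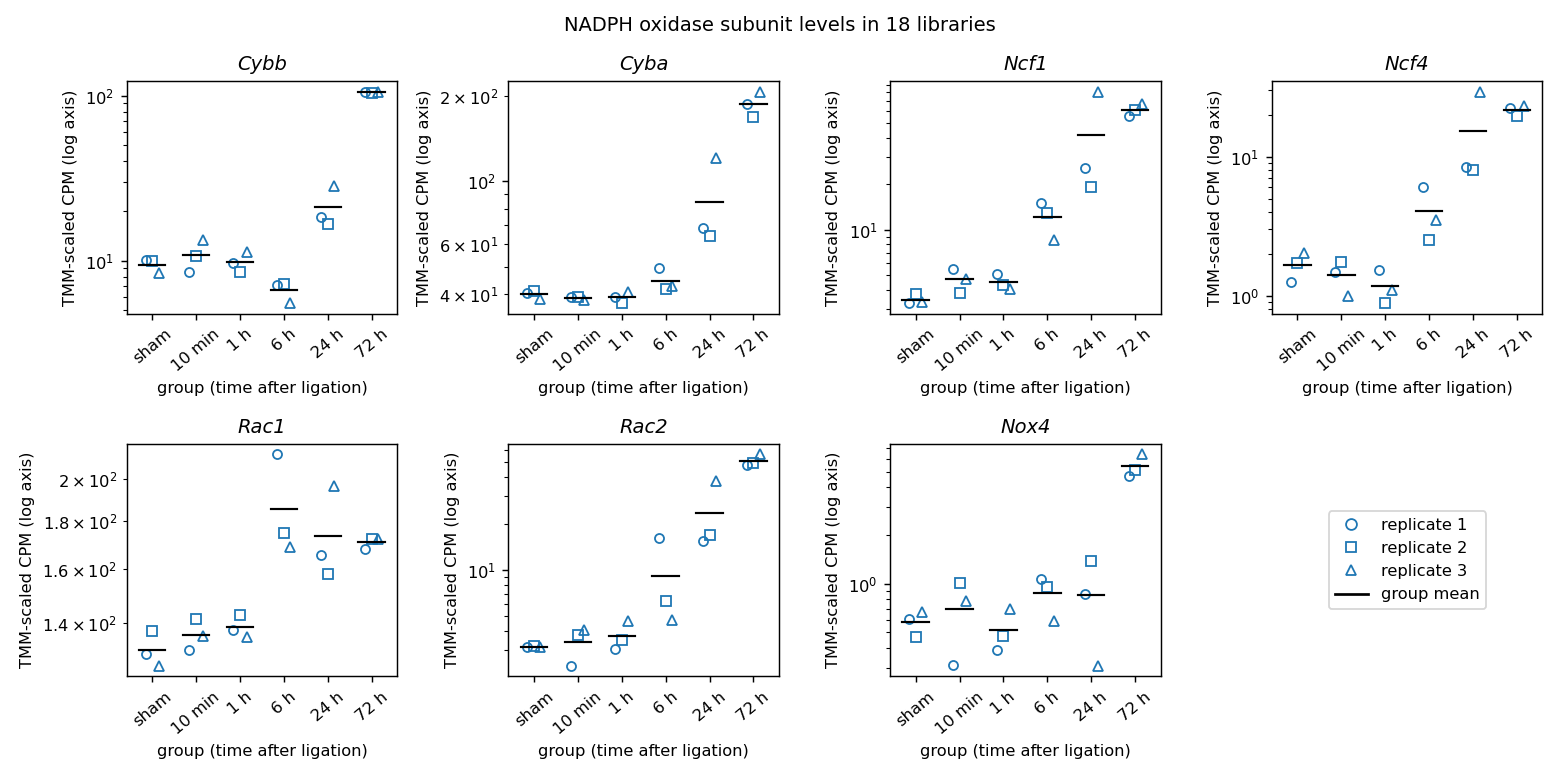
TMM-scaled CPM of the 7 oxidase genes (log axis) in each of the 18 libraries, by group from sham to 72 h; points are libraries and bars are group means. Cybb is lowest at 6 h, with a mean of 6.63, and its 3 libraries at 72 h lie between 104 and 106; the Nox4 libraries up to 24 h lie between 0.31 and 1.38.

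Cybb, the catalytic chain, was at its lowest at 6 h and rose from 24 h on. Its level was 10.1, 9.96 and 8.40 CPM in the 3 sham hearts and 7.09, 7.27 and 5.54 CPM at 6 h. It reached 18.3, 16.7 and 28.5 CPM at 24 h and 106, 104 and 105 CPM at 72 h. All 3 libraries at 6 h lay below all 3 sham libraries, and those at 24 h and 72 h lay above them. Of all genes tested, 21.2% lay wholly below sham at 6 h. The share wholly above sham was 28% at 24 h and 39.3% at 72 h.

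The log2 fold change of Cybb against sham was -0.51 ± 0.20 (SE) at 6 h, which missed the threshold at an edgeR adjusted p of 0.0582. Against the 1 h group, at 9.87 ± 1.34 CPM (SD, n = 3), Cybb was lower at 6 h by a log2 fold change of -0.57 with an edgeR adjusted p of 0.0417. That second call was lost in 9 of 18 fits that each left out a library, where the edgeR adjusted p ran from 0.0074 to 0.148. The 6 h level of Cybb was called lower than sham in 4 of 18 fits that each left out a library. Over those fits the edgeR adjusted p ran from 0.0129 to 0.187. It was also called lower in 3 of 9 other alternatives, among them scaling by library totals, with an edgeR adjusted p of 0.0263. Cybb then rose 2.22-fold over sham at 24 h and 11.1-fold at 72 h, where its log2 fold change was 3.47 ± 0.19 (SE) with an edgeR adjusted p of 8.11e-11. Between 24 h and 72 h alone its log2 fold change was 2.32, with an edgeR adjusted p of 1.33e-08.

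Cyba, the membrane partner shared by gp91phox and Nox4, was the highest of the 7 per exon length. Its level was 40.6, 41.0 and 38.4 CPM in sham and 49.6, 41.7 and 42.8 CPM at 6 h. At 24 h it measured 68.5, 64.2 and 121 CPM, and at 72 h 187, 168 and 207 CPM. The groups up to 1 h overlapped closely, and each library from 24 h on exceeded each sham library. Over all genes, this held for 28% at 24 h and 39.3% at 72 h. The 6 h difference from sham was not called (log2 fold change 0.16, edgeR adjusted p 0.512). Cyba rose 2.11-fold at 24 h and 4.69-fold at 72 h, with edgeR adjusted p of 1.07e-04 and 5.87e-09.

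Within each library, the ratio of Cybb to Cyba in FPKM lay below the sham range at 6 h and above it at 72 h. It was 0.0424 ± 0.00287 (SD, n = 3) in sham, 0.0266 ± 0.00412 at 6 h, 0.0455 ± 0.00299 at 24 h and 0.101 ± 0.0101 at 72 h. The highest 6 h library was 0.0312 and the lowest sham library 0.0391. The ratios are given as a description, and no test was made of them. Both values come from one library, so the ratio does not depend on the scaling between libraries.

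Ncf1, the organiser p47phox, rose earlier than Cybb. It measured 3.29, 3.79 and 3.33 CPM in sham, and 14.9, 12.8 and 8.57 CPM at 6 h. The 24 h libraries were spread widely, at 25.5, 19.0 and 81.0 CPM, and the 72 h libraries at 55.7, 61.5 and 67.5 CPM. Every library from 6 h on lay above every sham library, and replicate 3 at 24 h lay above all of the 72 h group. Of all genes, 23.1%, 28% and 39.3% lay wholly above sham at 6 h, 24 h and 72 h.

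The log2 fold change of Ncf1 against sham was 1.80 ± 0.46 (SE) at 6 h, with an edgeR adjusted p of 0.0108. It was 3.58 ± 0.46 at 24 h and 4.15 ± 0.47 at 72 h, with edgeR adjusted p of 5.50e-05 and 2.36e-06. The last of these was a 17.8-fold rise, the highest of the 7 genes on this scaling. The step from 24 h to 72 h was not called for Ncf1 (0.57, edgeR adjusted p 0.243). Without replicate 3 at 24 h that step was called, with an edgeR adjusted p of 1.79e-06, and the 24 h mean went from 41.8 to 22.3 CPM.

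Ncf4, the adaptor p40phox, followed a similar course at lower counts. It measured 1.26, 1.71 and 2.04 CPM in sham and 6.08, 2.54 and 3.52 CPM at 6 h. At 24 h it measured 8.37, 7.99 and 29.2 CPM, and at 72 h 22.1, 19.6 and 23.2 CPM. The 6 h libraries all lay above sham, as for 23.1% of all genes, but the difference was not called (log2 fold change 1.25, edgeR adjusted p 0.0774). DESeq2 called it, with an adjusted p of 0.0182, and so did edgeR without replicate 3 at 24 h, with an adjusted p of 0.00204.

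Against sham, Ncf4 was 12.8-fold higher at 72 h, and its log2 fold change was 3.16 at 24 h and 3.68 at 72 h, with edgeR adjusted p of 1.50e-04 and 7.24e-06. The step from 24 h to 72 h was not called (0.52, edgeR adjusted p 0.301). Without replicate 3 at 24 h the mean there went from 15.2 to 8.18 CPM and the step was called, with an edgeR adjusted p of 1.20e-04. Over the 18 libraries Ncf1 and Ncf4 had a Pearson correlation of 0.969 on the log scale, given as a description of libraries that share groups.

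Cytosolic and membrane subunits stood in another proportion at 6 h than in sham, a comparison chosen after the values had been seen. The ratio of Ncf1 to Cybb in FPKM was 0.582 ± 0.0596 (SD, n = 3) in sham, 2.86 ± 0.442 at 6 h and 2.84 ± 1.46 at 24 h. It was 0.930 ± 0.0937 at 72 h. The 6 h libraries ran from 2.45 to 3.33 and the sham libraries from 0.515 to 0.629.

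**Figure D2:**
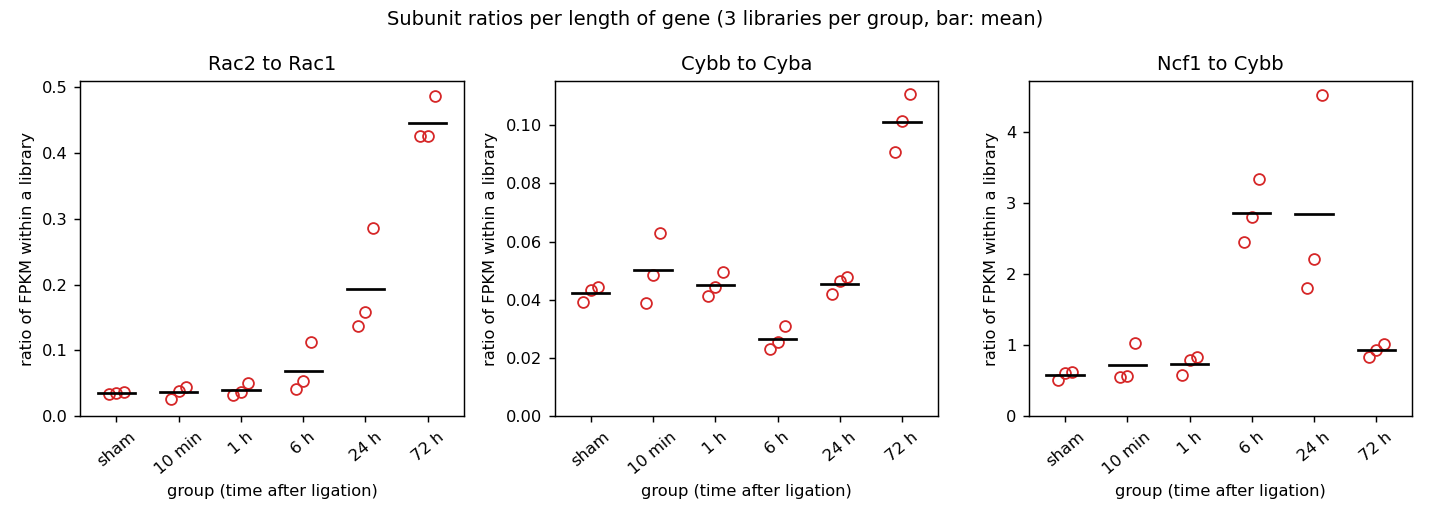
Ratios of FPKM between pairs of oxidase genes within each library, by group; points are libraries, set in order of value, and bars are group means. Rac2 to Rac1 climbs from 0.0357 in sham to 0.445 at 72 h, Ncf1 to Cybb is highest at 6 h and 24 h, and Cybb to Cyba is lowest at 6 h.

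The Rac proteins parted as well. Rac1, the widely made GTPase, measured 130, 137 and 126 CPM in sham and 213, 175 and 169 CPM at 6 h. It stayed at 166, 158 and 196 CPM at 24 h and 168, 172 and 172 CPM at 72 h. Each library from 6 h on lay above the sham group, and the groups at 6 h, 24 h and 72 h overlapped one another. Over all genes, 23.1%, 28% and 39.3% had every library above sham at these times. Reads shared with the related genes Rac2 and Rac3 may have been split or dropped, and how the counting treated them is not given in the sources used here.

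Rac1 rose by a log2 fold change of 0.50 ± 0.10 (SE) at 6 h, 0.41 ± 0.10 at 24 h and 0.39 ± 0.10 at 72 h, with edgeR adjusted p of 9.66e-04, 0.00263 and 0.00178. The 72 h value was 1.31-fold, the smallest of the 7. With library totals in place of TMM scaling, the log2 fold change at 72 h was 0.97 instead of 0.39, while the median over all genes moved to 0.61. That scaling also called a rise of Rac1 from 24 h to 72 h, of 0.37 with an edgeR adjusted p of 0.00333, where TMM scaling gave -0.02 and an edgeR adjusted p of 0.881.

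Rac2, the GTPase of blood cells, measured 3.13, 3.16 and 3.15 CPM in sham and 16.2, 6.27 and 4.69 CPM at 6 h. At 24 h it measured 15.3, 16.9 and 37.9 CPM, and at 72 h 48.3, 49.4 and 56.5 CPM. The 6 h libraries were all above sham, as for 23.1% of all genes, with replicate 1 far above the rest. Its log2 fold change was 1.5 ± 0.45 (SE) at 6 h, with an edgeR adjusted p of 0.0221. That call was lost without replicate 1 at 6 h, where the edgeR adjusted p was 0.152 and the 6 h mean went from 9.04 to 5.48 CPM, and also without any single sham library, without the filter, with limma at a pseudocount of 1, and with only the compared libraries.

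Rac2 rose by 2.88 at 24 h and 4.03 at 72 h on the log2 scale, the latter 16.3-fold with an edgeR adjusted p of 1.61e-06. In FPKM, Rac2 stood at 3.57% ± 0.151 (SD, n = 3) of Rac1 in sham and at 6.89% ± 3.82 at 6 h. It stood at 19.4% ± 8.07 at 24 h and 44.5% ± 3.51 at 72 h. The sham and 6 h ranges did not overlap, nor did those of 24 h and 72 h.

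Nox4, the oxidase that works without the cytosolic subunits, was higher than sham at 72 h. It had few counts before then, with 9 to 15 reads in each sham library and 6 to 39 at 24 h, against 148 to 201 at 72 h. In CPM it measured 0.61, 0.47 and 0.67 in sham, 1.07, 0.96 and 0.59 at 6 h, 0.86, 1.38 and 0.31 at 24 h, and 4.67, 5.08 and 6.40 at 72 h. The groups from sham to 24 h overlapped, and the 72 h group stood apart from each. Of all genes, 39.3% lay wholly above sham at 72 h.

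At 24 h Nox4 was the 1 gene of the 7 not called, at 0.59 ± 0.44 (SE) on the log2 scale with an edgeR adjusted p of 0.290. At 72 h it rose 9.16-fold over sham, a log2 fold change of 3.20 ± 0.40 (SE) with an edgeR adjusted p of 1.13e-06. Between 24 h and 72 h alone its log2 fold change was 2.60 ± 0.37 (SE), with an edgeR adjusted p of 1.24e-05. In FPKM, Nox4 stood at 0.0426 ± 0.0112 (SD, n = 3) of Cybb in sham and 0.0352 ± 0.00599 at 72 h, ranges that overlapped. At 6 h, when Cybb was at its lowest, it stood at 0.0888 ± 0.0156, with all 3 libraries above the sham range, and at 24 h at 0.0321 ± 0.0245.

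Step by step along the time course, 0 of 7 genes were called by edgeR between 10 min and 1 h, against 0.307% of all genes, and 0 had an unadjusted p below 0.05. Between 1 h and 6 h, 4 of 7 were called, with Ncf1, Ncf4 and Rac1 higher and Cybb lower, against 24.5% of all genes called, 14.5% higher and 10% lower. Between 6 h and 24 h, 5 of 7 were called higher, all but Rac1 and Nox4, against 27.8% of all genes called and 14.2% called higher. Between 24 h and 72 h, 4 of 7 were called higher (Cybb, Cyba, Rac2 and Nox4), against 50.5% of all genes called and 24.4% called higher.

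How far each gene had come by 24 h differed. The 24 h mean was 20.1% of the 72 h mean for Cybb and 15.8% for Nox4, but 67.9% for Ncf1 and 70.2% for Ncf4. Without replicate 3 at 24 h, these shares were 16.7%, 20.8%, 36.1% and 37.8%. Cyba stood at 45% and Rac2 at 45.5%, or 35.4% and 31.3% without that library, and Rac1 stood at 101%, or 94.7% without it.

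**Figure D3:**
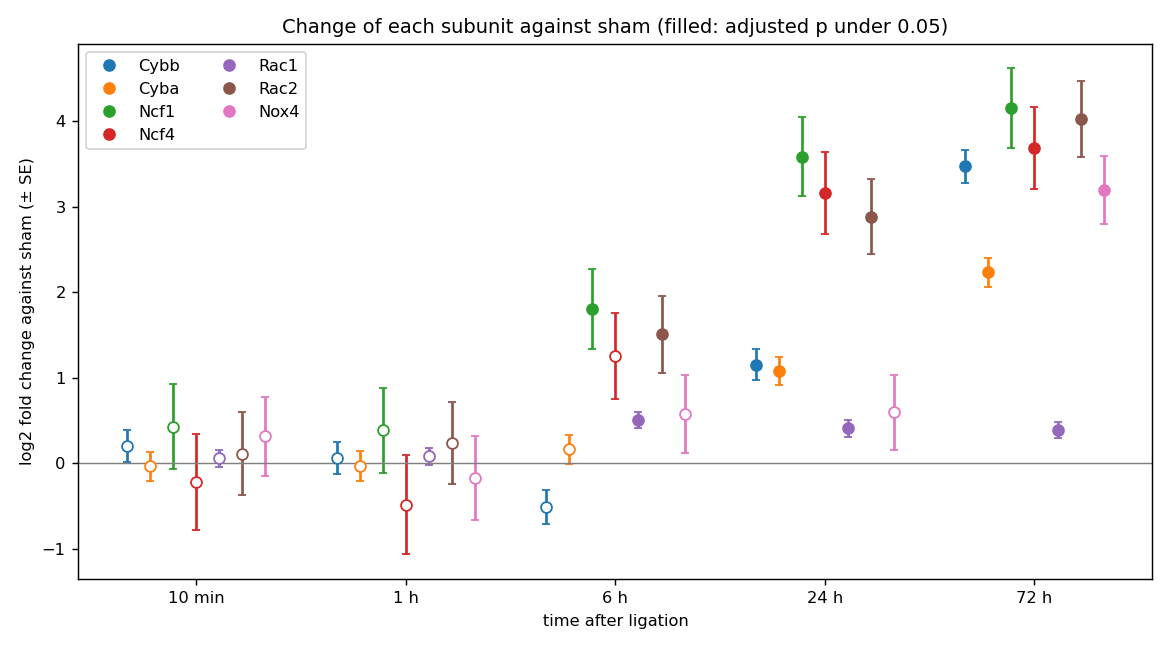
Log2 fold change of each oxidase gene against sham at the 5 times after ligation, from edgeR with TMM scaling; bars are standard errors and filled points passed an adjusted p below 0.05. Changes at 10 min and 1 h are unfilled, Cybb is below 0 at 6 h, and at 72 h the 7 genes run from 0.39 for Rac1 to 4.15 for Ncf1.

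Per exon length, the order of the genes in sham hearts was Cyba at 35.6 FPKM, Rac1 at 27.0, Cybb at 1.51, Rac2 at 0.962, Ncf1 at 0.877, Ncf4 at 0.770 and Nox4 at 0.0636. The sham ranges of Ncf4 and its neighbours Ncf1 and Rac2 overlapped. At 72 h the order was Cyba at 252 FPKM, Rac1 at 52.9, Cybb at 25.2, Rac2 at 23.6, Ncf1 at 23.4, Ncf4 at 14.9 and Nox4 at 0.887. Cybb, Rac2 and Ncf1 did not differ beyond their spread at 72 h, with group ranges of 24.8 to 25.9, 21.6 to 26.6 and 20.6 to 26.4 FPKM.

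Markers of blood cells also changed over the time course, neutrophil markers with their highest sums at 6 h and 24 h and monocyte and macrophage markers at 72 h. Their part in the oxidase results was not tested. Summed over 13 genes, neutrophil markers ranged from 5.37 to 7.68 CPM in sham and from 276 to 953 CPM at 6 h. They ranged from 109 to 998 CPM at 24 h and from 73.3 to 87.7 CPM at 72 h. At 6 h the highest sum was in replicate 1, which also held the most of each oxidase gene except Cybb. At 24 h the highest sum was in replicate 3, which held the most of the 6 genes other than Nox4 and the least Nox4. In sham hearts Ly6g, Elane and Mpo, 3 of the 13 neutrophil markers, were at 0 in every library, and at 72 h no marker was.

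The 12 monocyte and macrophage markers summed to between 238 and 271 CPM in sham, 258 and 512 at 6 h, 613 and 930 at 24 h, and 3070 and 3866 at 72 h. At 6 h, 8 of the 12 were called higher and 2 lower, against 28.4% of all genes called and 16.3% called higher. The median log2 fold change of the 12 at 6 h was 0.84. The 2 lower were Cx3cr1, a fractalkine receptor of monocytes and resident macrophages, with a log2 fold change of -2.46, and Adgre1, which encodes F4/80, with -0.47. Csf1r, the receptor for macrophage colony-stimulating factor, was at -0.36 and was not called (edgeR adjusted p 0.0797). No monocyte and macrophage marker was at 0 throughout any group.

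At 72 h, when Nox4 was called higher, the fibroblast marker sum was at its highest, as were the monocyte and macrophage sums given above. The sum of 9 fibroblast markers was between 843 and 951 CPM in sham, 973 and 1440 CPM at 24 h, and 12503 and 16117 CPM at 72 h. Its members differed widely: Col3a1 went from 135 ± 29.1 CPM (SD, n = 3) in sham to 5067 ± 684 at 72 h, and Dcn from 412 ± 12.9 to 514 ± 66.7 by way of 237 ± 42.6 at 24 h. Cardiomyocyte markers went the other way, to between 16230 and 21579 CPM at 72 h. The part of these cell types in the Nox4 result was not tested.

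**Figure D4:**
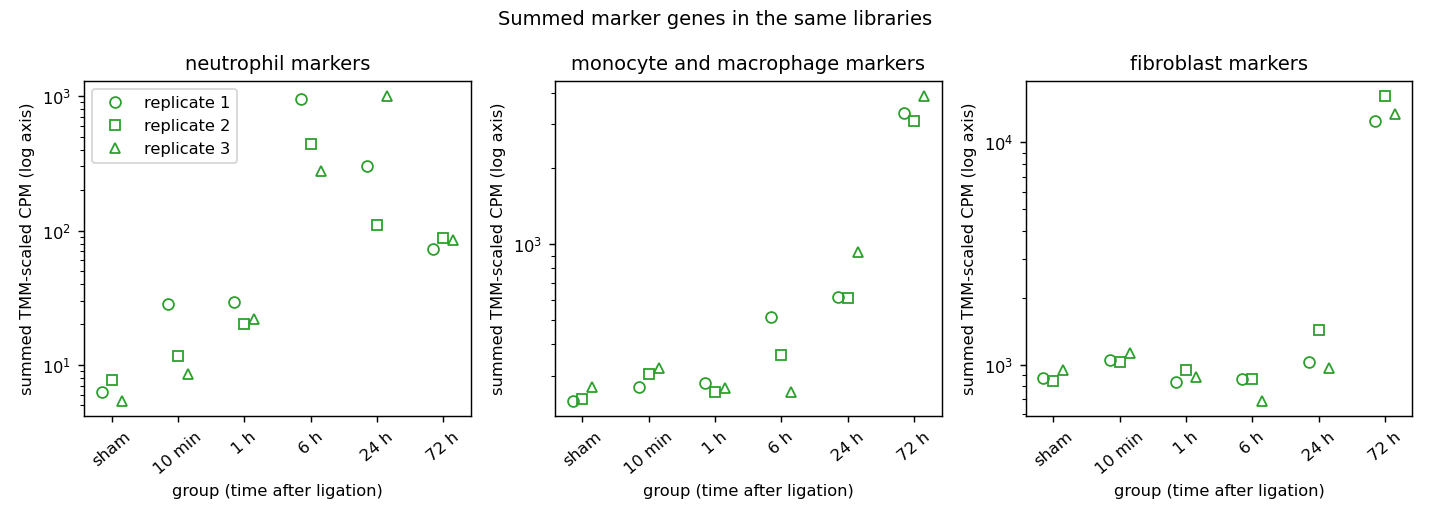
Summed TMM-scaled CPM of neutrophil, monocyte and macrophage, and fibroblast marker lists in each library (log axis), by group; points are libraries. Neutrophil sums reach 953 at 6 h and 998 at 24 h, monocyte and macrophage sums reach 3866 at 72 h, and fibroblast sums reach 16117 at 72 h.

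Of 16 other oxidase subunits, paralogues and assembly factors, 11 passed the filter on low counts. Nox1, Nox3, Noxa1, Duoxa1 and Duoxa2 did not pass it and were not tested. Of the 11, 2 were called higher and 0 lower at 6 h, 4 higher and 1 lower at 24 h, and 7 higher and 1 lower at 72 h, where the median log2 fold change was 0.49. The 6 h count lies near the 16.3% of all genes called higher. At 24 h and 72 h the totals called in either direction lie near the 43.8% and 66.4% over all genes. The shares of all genes called higher were lower, at 23.7% and 34.2%. The 6 h count was 1 without replicate 2 of sham or without replicate 1 at 6 h. Hvcn1, the proton channel that balances charge during the burst, went from 0.515 ± 0.316 CPM (SD, n = 3) in sham to 9.16 ± 1.87 at 72 h. Cybc1, a chaperone of the gp91phox and p22phox pair, went from 10.5 ± 1.73 to 32.0 ± 2.06 CPM. Poldip2, a p22phox-binding protein that raises Nox4 activity, was the lower one, from 138 ± 3.01 to 60.3 ± 5.96 CPM at 72 h. With library totals its 24 h call was lost (edgeR adjusted p 0.0958).

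All 20 activators and inhibitors of Rac passed the filter. At 6 h 5 were called higher, at 24 h 11 higher and 1 lower, and at 72 h 17 higher and 1 lower, with a median log2 fold change of 1.26 at 72 h. Over all genes 16.3%, 23.7% and 34.2% were called higher at these times, and the 6 h count lies near the 28.4% called in either direction. The 5 at 6 h, named after their values had been seen, were Vav1, Tiam2, Dock1, Arhgdia and Bcr. Racgap1, a GTPase-activating protein also used in cell division, rose by 4.98 at 72 h. Arhgdib, which holds Rac in the cytosol of blood cells, rose by 2.27, and the Rac activator Prex1 rose by 2.21. The related activator Prex2 was the lower one, at -1.18, and its 24 h call was lost with library totals (edgeR adjusted p 0.0557).

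Of 17 kinases and lipid enzymes that act on the phagocyte oxidase, 7 were called higher and 1 lower at 6 h, and 12 higher and 0 lower at both 24 h and 72 h. Of all genes, 28.4%, 43.8% and 66.4% were called at the 3 times, and 16.3%, 23.7% and 34.2% were called higher, so the total called at 72 h lies near the share over all genes. The 6 h count of higher genes was 4 without replicate 1 or 2 of sham, without replicate 1 at 6 h, or with library totals. The lower gene at 6 h was Akt1, at -0.24, named after its value had been seen. Pak1, a kinase switched on by Rac, rose by 1.35 at 6 h and 4.23 at 72 h on the log2 scale. Pla2g4a, a phospholipase that frees arachidonic acid, rose by 0.78 and 2.62. Plcg2 was at -0.08 at 6 h, not called, and rose by 1.79 at 72 h.

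A list of 15 genes covered receptors that act on the oxidative burst. It includes Fcgr2b, which encodes an inhibitory receptor, so not every gene of the list is a trigger. All 15 were called higher at 6 h and at 24 h, and 14 were at 72 h. Over all genes, 16.3%, 23.7% and 34.2% were called higher at 6 h, 24 h and 72 h. The 6 h count was 8 without replicate 1 at 6 h and 9 without replicate 1 of sham. At 72 h the formyl peptide receptor gene Fpr1 was not called, with a fitted log2 fold change of 4.42. That value rests on at most 1 read per sham library and at most 29 reads per library at 72 h. Fcgr1 and Fcgr4, receptors for antibody-coated targets, and Fcer1g, their signalling chain, rose at 72 h by 4.57, 5.31 and 3.93 on the log2 scale. The median of the 15 was 2.01 at 6 h and 3.93 at 72 h.

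Of 9 transcription factors known at promoters of phagocyte oxidase genes, 6 were called higher and 1 lower at 6 h and 7 higher and 0 lower at 24 h and 72 h, against 16.3%, 23.7% and 34.2% of all genes called higher. Spi1, which encodes PU.1, went from 8.32 ± 1.45 CPM (SD, n = 3) in sham to 23.8 ± 9.69 at 6 h and 111 ± 3.88 at 72 h. Irf8 rose by 1.42 at 6 h and 2.92 at 72 h, and Cebpa by 0.79 and 3.69. Cybb was not higher than sham at 6 h, when these 3 factors were. Any part of these factors in the level of Cybb was not tested.

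Of 17 enzymes that remove superoxide and hydrogen peroxide, 5 were called higher and 0 lower at 6 h, 4 higher and 8 lower at 24 h, and 7 higher and 10 lower at 72 h, where the median log2 fold change was -0.80. At 6 h, 16.3% of all genes were called higher and 28.4% in either direction, and the 6 h count lies near the latter. The counts called higher at 24 h and 72 h lie near the 23.7% and 34.2% of all genes called higher. In either direction, 43.8% and 66.4% of all genes were called at 24 h and 72 h, and with TMM scaling the list's totals lay above these shares. Over all genes, 3860 of the 7149 called at 24 h and 5572 of the 10831 called at 72 h were higher. In this list most of those called at these times with TMM scaling were lower. With library totals the split was 5 higher and 2 lower at 24 h and 7 higher and 8 lower at 72 h. The 5 higher genes at 6 h were Sod3, Gpx1, Gpx3, Txn1 and Txnrd1, and the 4 at 24 h were these without Sod3. The 6 h count was 3 without replicate 2 or 3 of sham or replicate 1 at 6 h, and 2 with library totals. The count of lower genes at 24 h was 5 without replicate 1 of sham.

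Of these enzymes, Gpx1, the cytosolic glutathione peroxidase, rose by 2.0 at 72 h and Prdx4, a peroxiredoxin of the secretory pathway, by 1.84. The extracellular enzymes Sod3 and Gpx3 rose by 1.31 and 1.28, Txn1 by 1.08, Txnrd1 by 0.79 and Prdx1 by 0.68. Txnrd1, which recycles thioredoxin, had its highest value at 6 h, at 1.25. The 10 lower enzymes at 72 h included Sod2, the mitochondrial superoxide dismutase, at -1.70, and Prdx3, the mitochondrial peroxiredoxin, at -1.37, both chosen after their values had been seen.

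Genes whose levels ran most like each oxidase gene over the 18 libraries were ranked by Pearson correlation on the log scale, a description with no test. Csf1r was most like Cybb (0.993), followed by Prkcb (0.983). Ctsz was most like Cyba (0.993), while Fam49b (0.993) and Itgb2 (0.992) were most like Ncf1. For Ncf4 the first were Apobr (0.984) and Anxa2 (0.984), and Vav1 (0.990) was among the first for Rac2. For Rac1 the first were Tgm1 (0.978) and Amer2 (0.974). Nox4 had no match as close, with Troap (0.957) and Kif11 (0.952) first. Its 5 to 39 counts per library before 72 h add noise to these values. Tgm1, Amer2 and Troap were near the floor in sham, with means of 0.161, 0 and 0.0765 CPM. Between the oxidase genes themselves the correlation was as low as 0.345, for Cybb with Rac1.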

How the data were processed

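Libraries of polyadenylated RNA from 18 hearts gave gene-level read counts and FPKM values, which the authors deposited as 2 tables per sample. Per the submitters' processing notes, the tools named were cutadapt 1.18, HISAT2 2.1.0 and featureCounts, with build mm10; strand setting and annotation are not given in the sources used here. At 6 h, the deposited FPKM of replicate 2 followed the counts of replicate 3 and the reverse, so 6 h FPKM values are given for the group. Ensembl identifiers were matched to GENCODE M21 symbols (30489 of 30583). The oxidase genes, marker lists and pathway lists were chosen with earlier results of these data known. Named pathway genes are the 3 with the smallest F-test p and any called against most of its list at 72 h.

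Counts were fitted in R 4.3.3 with edgeR 4.0.16 (TMM scaling, factors 0.825 to 1.43; filterByExpr, which removed 14272 genes; robust quasi-likelihood fit over all 18 libraries; biological coefficient of variation 0.149). Standard errors are the absolute log2 fold change divided by the square root of F. Alternatives were RLE scaling, library totals, DESeq2 1.42.0, limma 3.58.1 on log2(FPKM + 1) and log2(FPKM + 0.1), other filters, only the compared libraries, a replicate block and leaving out each library. The edgeR fit of 72 h against sham was tested on simulated data; the DESeq2 and limma alternatives were not. Depth was 18199172 to 25062351 counts per library. Some genes of the lists are not reported here by name.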

Additional observations from a re-analysis of the deposited data

How the results depend on the processing

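Of 1128 re-computed log2 fold changes of the 7 genes (the steps from 6 h on were added after seeing the data), 1054 kept their direction and their side of the threshold, 41 lost a call, 21 gained one and 12 changed sign. All 12 sign changes were in steps that TMM scaling did not call. For Nox4 from 6 h to 24 h, 0.02 became -0.0043 with a replicate block, -0.20 without 6 h replicate 3 and -0.53 without 24 h replicate 2, in a range of -0.53 to 0.38 when 1 library was left out. For Rac1 from 6 h to 24 h, -0.10 became 0.21 with library totals, 0.20 and 0.21 with limma at pseudocounts of 1 and 0.1, and 0.013 without 6 h replicate 1, in a range of -0.19 to 0.013 when 1 library was left out. For Rac1 from 24 h to 72 h, -0.02 became 0.37 with library totals, 0.37 and 0.38 with limma, 0.035 with at least 10 counts in every library, and 0.071 without 24 h replicate 3, in a range of -0.087 to 0.071. With library totals the median over all genes became -0.12 (6 h), 0.20 (24 h) and 0.61 (72 h).

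The count of oxidase genes called against sham was 0 at 10 min and at 1 h and 6 at 24 h in all alternatives run, and 7 at 72 h except for 6 with at least 10 counts in every library, a filter that Nox4 did not pass. Leaving out 1 library moved the count at 6 h from 3 to between 2 and 5, the latter without 24 h replicate 3, and the count from 1 h to 6 h from 4 to between 1 and 5. That step had 1 call with limma at a pseudocount of 1 and 2 with no filter. From 6 h to 24 h the count was 1 in place of 5 when only those 6 libraries were fitted, and from 24 h to 72 h it was 7 in place of 4 with limma at either pseudocount. The cause was not tested. Over all genes, 12 were called at 10 min, against 58 with DESeq2, 360 when only the compared libraries were fitted, and 0 without sham replicate 3.

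For libraries with the same replicate number, the correlation of their deviations had a median of 0.035 and ran from -0.26 to 0.25. For different numbers the median was -0.013. In 9 of 18 libraries, the mean correlation was highest with the libraries of their own number. No test was made of these correlations. With the replicate block the count at 6 h was 3. Nox4 had 5 to 39 counts per library before 72 h, and its log2 fold change at 24 h had a standard error of 0.44.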
